A study of Mus musculus with 8 samples.

Results

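The 10 genes described here encode proteins of the extracellular matrix. They are 3 laminin chains (Lama4, Lamb1 and Lamc1), fibronectin (Fn1), 4 chains of the fibrillar collagens (Col1a1, Col1a2, Col3a1 and Col5a2) and 2 chains of type IV collagen (Col4a1 and Col4a2). They are 10 of 55450 genes in the GENCODE M21 annotation of the mouse genome build mm10, of which 20188 held a peak in either list. A binding peak was assigned to a gene when its midpoint lay in the body of the gene on the same strand. By that rule the 10 genes held 338 of 387749 distinct peaks of replicate 1, 256 of 344700 of replicate 2, and 16 of the 16399 pairs that the authors deposited as shared by both replicates.

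The peaks come from individual-nucleotide resolution crosslinking and immunoprecipitation (iCLIP), in which RNA crosslinked to a protein is recovered with an antibody and sequenced. The cells were mHippoE-2, a transformed mouse hippocampal neuron line of strain Crl:CFW(SW)-024. The 8 libraries of the study all come from cells carrying a lentivirus that expresses FLAG-HA-tagged mouse RBM45, an RNA-binding protein. They fall into 4 groups of 2: Mettl3 KO CLIP, Mettl3 KO input, WT CLIP and WT input. CLIP libraries were made with an antibody against the HA tag, and the size-matched inputs with none. UV crosslinking at 2 doses of 150 mJ/cm2 is stated for the Mettl3 KO libraries alone. Mettl3 encodes the catalytic subunit of the m6A RNA methyltransferase. The values below are from the 2 WT CLIP libraries, so binding was not compared between genotypes or with input. The protein bound is the tagged, virally expressed one, and nothing in the labels says whether the 2 replicates were separate cultures.

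Laminins are trimers of an alpha, a beta and a gamma chain, many of which are cross-shaped and polymerise into the sheet of the basement membrane. Lamc1 encodes the gamma chain found in most laminin trimers, Lamb1 a widely expressed beta chain, and Lama4 an alpha chain best known from blood vessels, muscle and nerve. Type IV collagen forms the second network of the basement membrane. Col4a1 and Col4a2 encode the chains of its commonest trimer and lie head to head on opposite strands. Col1a1 and Col1a2 encode type I collagen, Col3a1 type III collagen and Col5a2 a chain of type V collagen, which is built into type I fibrils. Fibronectin binds collagens and integrins. In the brain these proteins are best known from vessels and meninges, and laminins also as a substrate for growing neurites.

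Sequences are shown for the exonic peaks that both replicates held and for the strongest 3′ UTR peaks found in 1 replicate, since these lie in sequence that the mature messenger RNA keeps. They were read from the GENCODE M21 transcripts (mm10) and are given 5′ to 3′ as DNA letters of the RNA strand. Capitals mark GAC, TTTTT and AATAAA. GAC is the core of the sequence that RBM45 is known to bind, TTTTT is a uridine tract, and AATAAA is the polyadenylation signal. Only the RNA strand was searched, and the 3 motifs overlapped nowhere in these windows. The shared peaks lie at chr1:71585662-71585691 on the minus strand for Fn1, chr8:11198528-11198557 on the minus strand for Col4a1 and chr8:11402163-11402223 on the plus strand for Col4a2, each being the exonic bases of the replicate 2 interval. The peaks of replicate 1 alone lie at chr1:153220014-153220043 on the minus strand for Lamc1 and chr11:94951781-94951810 on the plus strand for Col1a1, where the printed bases are the centre of a wider peak. Coordinates here and below are 1-based and of build mm10.
Fn1, 3′ UTR, shared: tcaaTTTTTcccagtaTTTTTatacggaaa
Col4a1, 3′ UTR, shared: taagaattcaaatttgtAATAAAactattt
Col4a2, coding, shared: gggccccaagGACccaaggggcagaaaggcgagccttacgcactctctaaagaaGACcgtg
Lamc1, 3′ UTR, replicate 1: ttgtgtgaatggattttgtttatcatgatt
Col1a1, 3′ UTR, replicate 1: tcaaacttagTTTTTacctttGACcaactg
Among 1385 exonic shared peaks of 30 bp in all genes, GAC occurred in 31.7%, TTTTT in 7.87% and AATAAA in 2.89%. Here exonic means lying whole within an exon of any GENCODE M21 transcript, with coding sequence and UTRs together. These peaks were not matched to the windows above in region or GC content, and the Lamc1 and Col1a1 windows are not of shared peaks. The Fn1 window held TTTTT at 2 places, and Col1a1 held TTTTT once and GAC once. AATAAA lay in the Col4a1 window, whose near edge lies 105 bp from the annotated 3′ end of the gene. The coding Col4a2 window held GAC at 2 places in 61 bases, a length for which no background share was computed. None of the 3 motifs was in the Lamc1 window. GC content was 13.3% in the Col4a1 window, 26.7% in each of the Fn1 and Lamc1 windows, 33.3% in that of Col1a1 and 60.7% in the coding Col4a2 window.

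How many reads stand behind a peak sets how much it can show. The fold of a peak is the height of the read pileup over a local background, as the authors' peak caller gave it. Fold and p-value together fitted a whole-number pileup for 387743 peaks of replicate 1 and 344689 of replicate 2, to within 0.0005 in −log10 p. This implied pileup was 1 for 76.7% of the peaks of replicate 1 and 69.6% of those of replicate 2, and 3 or more for 8.38% and 12.6%. Peaks of pileup 1 occurred up to an implied background of 0.103 in each replicate, so the number of such peaks in a gene depends on its background as well as its reads. The lowest background, 0.0246 in replicate 1 and 0.0404 in replicate 2, gave such a peak a fold of 1.95 and 1.92. Most peaks (84.0% and 83.4%) had the least width, 30 bp. Library depth is not given in the peak lists.

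The type IV collagen genes carried most of the peaks of the matrix genes. Col4a1 held 98 peaks in replicate 1 and 50 in replicate 2, which is 0.857 and 0.437 peaks per kb of gene. Col4a2 held 122 and 109, or 0.894 and 0.799 per kb. Together they made up 65.1% of the peaks of the 10 genes in replicate 1 and 62.1% in replicate 2 on 29.1% of their length. Among the 20188 genes with a peak in either list, the mean density of Col4a2 stood at percentile 83.8 and that of Col4a1 at 70.2. The replicates differed for Col4a1 (mean 0.647 ± 0.297 peaks per kb, SD, n = 2) more than for Col4a2 (0.846 ± 0.0674).

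Laminin chains were sparser and unlike each other. Lamc1 held 44 peaks in replicate 1 and 24 in replicate 2 (0.386 and 0.211 per kb, percentile 43.2). Lamb1 held 13 in each (0.202 per kb, percentile 35.1). In Lama4, the longest of the 10 genes at 144.7 kb, 9 and 16 peaks were found (0.0622 and 0.111 per kb, percentile 21.1). Lamc1 was thus the densest laminin gene in both replicates, by a wide margin in replicate 1 and a narrow one over Lamb1 in replicate 2.

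Among the fibrillar collagens, Col5a2 held 32 and 23 peaks in replicates 1 and 2 (0.248 and 0.178 per kb, percentile 36.2). Col3a1 held 7 and 5, Col1a2 held 5 and 10, and Col1a1 held 2 and 0. The density order of Col3a1 and Col1a2 differed between replicates: 0.183 and 0.131 per kb in Col3a1, 0.136 and 0.272 in Col1a2. Fn1 had 6 peaks in each replicate (0.0887 per kb, percentile 21.5). Col1a1, the shortest at 16.8 kb, was the lowest in percentile, at 14.8. The genes stood closely enough that the middle of the order was not fixed: the means of Lamb1, Col1a2 and Col5a2, at 0.202, 0.204 and 0.213 per kb, differed by less than the SD of Col1a2 (0.0963).

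**Figure D1:**
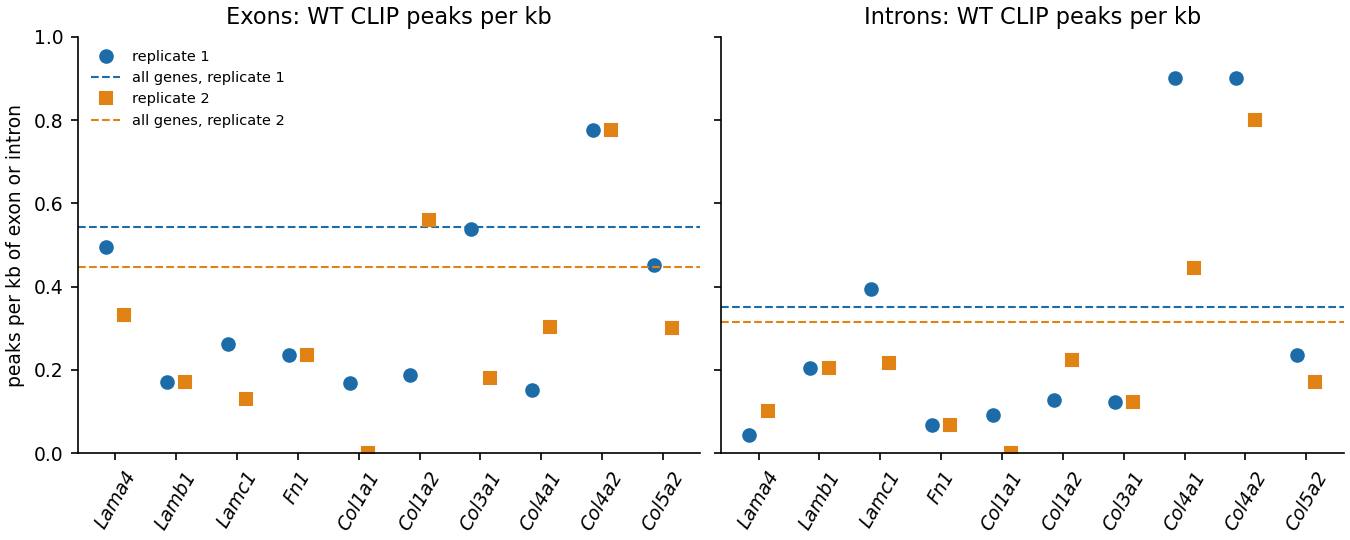
Peaks per kb of exon and of intron for each matrix gene in each WT CLIP replicate, with dashed lines for all genes with a peak. Col4a1 and Col4a2 stand highest in introns, at 0.445 to 0.900 peaks per kb, while exonic densities rest on 5 peaks or fewer per gene and replicate.

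Peaks in the 10 genes lay almost wholly in introns. In replicate 1, 22 of 338 peaks were exonic, 6.51% (95% Wilson interval 4.34 to 9.66), against 9.66% over all genes. Replicate 2 had 19 of 256, 7.42% (4.80 to 11.3), against 8.94%. All intervals here cover counting error only. Exons make up 7.48% of the length of the 10 genes and 6.46% of that of all genes with a peak. Exonic density was 0.341 and 0.295 peaks per kb in the matrix genes of replicates 1 and 2, against 0.542 and 0.448 over all genes. Intronic density was 0.396 and 0.297 in the matrix genes, against 0.350 and 0.315. The ratio of exonic to intronic density was therefore 0.861 and 0.991 (mean 0.926 ± 0.0922, SD, n = 2) in the matrix genes, against 1.55 and 1.42 over all genes. It was below that of all genes in both replicates.

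That ratio differed within the set. For the type IV pair it was 0.510 and 0.838, with 6 and 7 exonic peaks. For Lamc1 it was 0.664 and 0.606, from 2 exonic peaks in replicate 1 and 1 in replicate 2. Across the other 7 genes, without Lamc1 and the type IV pair, it was 2.41 and 1.84, with 18.9% and 15.1% of peaks exonic. The low value of the whole set thus came with the type IV pair and Lamc1. Of the exonic peaks of the 10 genes, 15 in replicate 1 and 14 in replicate 2 lay in coding sequence, 7 and 5 in 3′ UTRs and 0 in 5′ UTRs. All 5 exonic peaks of Col4a2 in each replicate were in coding sequence.

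Long first introns held many of the intronic peaks of Lamc1 and Col4a1, but not of each gene. Over the 10 genes, intron 1 is 28.8% of intronic length and held 32.6% and 25.3% of intronic peaks in replicates 1 and 2. That is 0.449 and 0.261 peaks per kb, against 0.375 and 0.312 in later introns, so the direction differed between replicates. The 39.3 kb intron 1 of Lama4 held 2 of 6 and 2 of 14 intronic peaks. Intron 1 of Lamc1 is 69.4 kb, 65.4% of its intronic length, and held 34 of 42 intronic peaks in replicate 1 (81.0%) and 17 of 23 in replicate 2 (73.9%). Its density was 0.490 and 0.245 per kb, against 0.217 and 0.163 in later introns. Intron 1 of Col4a1 (44.9 kb, 41.6% of intronic length) held 50 of 97 and 33 of 48. Intron 1 was denser than later introns in both replicates in Lamc1 and Col4a1. In Col5a2, whose intron 1 is 49.0% of the intronic length, it held 15 of 29 and 5 of 21 peaks, so that it was the denser in replicate 1 and the sparser in replicate 2. Within 100 nt of a splice site lay 14 of 316 intronic peaks in replicate 1 and 19 of 237 in replicate 2. No share over all genes is given for intron 1 or for splice sites.

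The genes also differed in how many reads their peaks implied. In Lama4, Col1a2 and Col3a1 nearly all peaks had a pileup of 1: 9, 5 and 7 of them in replicate 1, which is each peak of these genes, and 14 of 16, 10 of 10 and 5 of 5 in replicate 2. All but 1 of these 3 genes' peaks lay at the lowest background of their list. Lamb1, Fn1, Col5a2 and Lamc1 stood at the other end in replicate 2, where none of their peaks had a pileup of 1. Fn1 had a pileup of 3 or more at all 12 of its peaks over both replicates, with a median implied background of 0.819 and 2.00, the highest among the genes with a peak in both replicates. Most Col4a2 peaks had a pileup of 1, 91 of 122 in replicate 1 and 78 of 109 in replicate 2. In Col4a1 this held for 70 of 98 in replicate 1 but for 20 of 50 in replicate 2, where 16 had a pileup of 3 or more. No RNA level enters these values, so the number of transcripts and the binding per transcript cannot be told apart.

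**Figure D2:**
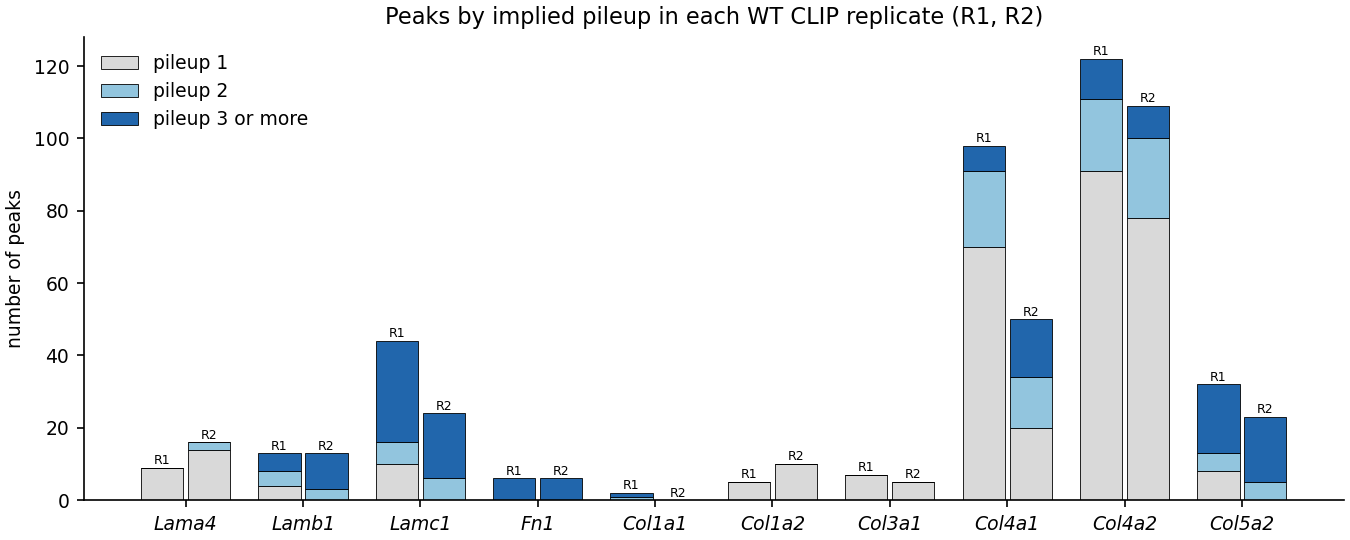
Number of peaks of each matrix gene with an implied pileup of 1, 2 and 3 or more, in WT CLIP replicates 1 and 2. Col4a1 and Col4a2 have the most peaks, of which 70 of 98 and 20 of 50 in Col4a1 and 91 of 122 and 78 of 109 in Col4a2 have a pileup of 1, whereas 28 of 44 and 18 of 24 Lamc1 peaks have 3 or more.

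Lamc1 had higher peaks than the other 9 genes pooled, of whose peaks most belong to the type IV pair (220 of 294 in replicate 1 and 159 of 232 in replicate 2). It held 13.02% of the peaks of the 10 genes in replicate 1 and 9.38% in replicate 2, on 13.2% of their length. Its density over that of the other 9 genes combined was 0.984 and 0.680, and over the 7 without type IV collagen 2.60 and 1.44. Against the 9, the direction turned to 2.23 and 1.502 with peaks of pileup 1 left out and to 8.76 and 4.93 among peaks of fold 5 or more. A pileup of 3 or more was implied for 63.6% and 75.0% of its peaks, against 16.7% and 25.4% in the other 9 genes and 8.40% and 12.6% over all genes. The median implied background of the peaks was 0.139 and 0.268 in Lamc1, against 0.0818 and 0.0856 in the other 9. Peaks of pileup 1 occurred only up to 0.103 in each replicate, so their number depends on background as well as on reads. In replicate 2 each Lamc1 peak had an implied background of 0.169 or more, so a pileup of 1 could not be listed there. How far background bears on the differences in pileup and fold between Lamc1 and the other 9 was not tested. The median fold was 3.08 and 3.15 in Lamc1, against 1.89 and 1.92 in the other 9. Folds of 5 or more occurred at 4 of 44 and 3 of 24 Lamc1 peaks (9.09% and 12.5%), against 3 of 294 and 4 of 232 in the other 9 (1.02% and 1.72%) and 0.952% and 0.757% over all genes. Lamc1 was chosen with earlier results of these data known, so these differences are descriptions and were not tested. Among the other 9, Lamb1 (2.61 and 3.18), Col5a2 (2.90 and 3.13) and Fn1 (3.79 and 3.62) had median folds near or above that of Lamc1, and in replicate 2 a pileup of 3 or more at 10 of 13, 18 of 23 and 6 of 6 peaks, against 18 of 24 in Lamc1. The height of its peaks is therefore not particular to Lamc1 within the set.

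The strongest peak of the set was an intronic one of Lamc1 in replicate 1, with a fold of 13.03 and a pileup of 16. It was followed by an intronic Col4a1 peak of fold 9.66 in replicate 1, and both have a shared partner in replicate 2. Fn1 was the other gene with a fold above 8: its intronic peak at chr1:71649452-71649485 had 8.24 and a pileup of 14 in replicate 1 and was not shared. The highest exonic fold of the set was also in 1 replicate alone. It lay in coding sequence of Col5a2, at chr1:45378297-45378341, with 6.16 and a pileup of 8 in replicate 1. The Lamc1 and Col1a1 3′ UTR peaks whose sequences are shown above had folds of 4.91 and 3.71, each with a pileup of 13, and had no shared partner in replicate 2.

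Of the peaks of the 10 genes, 16 were shared, where shared means that the overlap covers at least 50% of the replicate 2 peak. This is 6.25% of the 256 peaks of replicate 2 (3.88 to 9.91) and 4.73% of the 338 of replicate 1, against 4.81% and 4.19% over all genes. Exonic peaks of replicate 2 were shared in 3 of 19 cases, 15.8% (5.52 to 37.6), and intronic ones in 13 of 237, 5.49% (3.23 to 9.16); the intervals overlap. Over all genes these shares were 6.07% and 4.68%. By pileup in replicate 2, sharing was found for 11 of 77 peaks of 3 or more, 14.3% (8.17 to 23.8), against 1 of 52 of pileup 2 and 4 of 127 of pileup 1, 3.15% (1.23 to 7.82). Over all genes the shares were 11.98%, 5.49% and 3.33% for pileups of 3 or more, 2 and 1.

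Shared peaks came from 4 of the 9 matrix genes that had a peak in both replicates; at least 1 shared peak was found in 38.7% of the 15995 genes of that kind. Col4a1 held 6, Lamc1 5, Col4a2 3 and Fn1 2. At least 5 shared peaks, the number in Lamc1 and exceeded in Col4a1, occurred in 5.89% of those genes. These shares were not matched for gene length, whose median was 90.8 kb in the 10 members and 27.9 kb in the 15995 genes. Lamc1 shared 5 of its 24 replicate 2 peaks, 20.8% (9.24 to 40.5), against 11 of 232, 4.74% (2.67 to 8.29), in the other 9 genes. The 2 shares cover peaks of unlike pileup. Among replicate 2 peaks of pileup 3 or more, Lamc1 shared 5 of 18, 27.8% (12.5 to 50.9). The other 9 genes shared 6 of 59 such peaks, 10.2% (4.74 to 20.5), beside 11.98% over all genes. At that pileup the intervals of Lamc1 and the other 9 overlap. Fn1 shared 2 of 6, Col4a1 6 of 50 and Col4a2 3 of 109. Lama4, Lamb1, Col1a2, Col3a1 and Col5a2 shared none of their 16, 13, 10, 5 and 23 replicate 2 peaks, which for Col5a2 leaves an upper Wilson limit of 14.3%. In Lamb1 and Col1a2 the nearest replicate 1 peak stood at least 527 bp and 239 bp from any replicate 2 peak. Col5a2, with 23 such peaks and a median distance of 2.55 kb, had 1 within 100 bp.

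All 5 shared peaks of Lamc1 were intronic and had a pileup of 3 or more in both replicates. The gene lies on the minus strand at chr1:153218922-153332786. In intron 1, the peak at chr1:153309135-153309208 had a fold of 13.03 and a pileup of 16 in replicate 1, and its partner a fold of 4.85 and a pileup of 6 in replicate 2. Only 73 bp away in replicate 2, a further shared peak had folds of 2.60 and 5.07 in replicates 1 and 2 with pileups of 4 and 6, so this pair marks 1 stretch about 23.5 kb into the gene. The third peak of intron 1, at chr1:153292769-153292832, had folds of 9.19 and 7.81 with pileups of 10 and 9, and its replicate 2 value was the highest of the set. Intron 3 held a peak at chr1:153255671-153255716 with folds of 5.21 and 3.202 and pileups of 5 and 3. The last, in intron 18 of 27 at chr1:153236608-153236658, had folds of 7.98 and 3.97 and pileups of 8 and 4. The fold was higher in replicate 1 at 4 of the 5.

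In Col4a1, on the minus strand at chr8:11198423-11312826, the 6 shared peaks were of both kinds. The strongest lay in intron 10 of 51, at chr8:11242859-11242907 in replicate 1, its midpoint 66 bp from the 3′ splice site (59 bp in replicate 2), with folds of 9.66 and 7.07 and pileups of 10 and 7 in replicates 1 and 2. The 3′ UTR peak, in exon 52 of 52, had folds of 4.46 and 3.92 and pileups of 5 and 8. The remaining 4 lay in intron 1. Their folds were 1.85 to 2.79 in replicate 1 and 1.82 to 5.34 in replicate 2, and each had a pileup of 1 in at least one of the replicates. Col4a2, on the plus strand at chr8:11312805-11449287, shared 2 peaks in intron 3 of 47, which is 40.6 kb long, and 1 in coding exon 8 of 48. Both intronic pairs had a pileup of 1 in each replicate with folds of 1.86 to 1.93. The coding pair had folds of 1.85 and 2.38 and pileups of 1 and 2.

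Fn1, on the minus strand at chr1:71585520-71653200, shared a 3′ UTR peak in its last exon, 46, with folds of 3.62 and 3.088 and pileups of 16 and 26 in replicates 1 and 2. The replicate 1 interval is 154 bp wide and contains the whole 30 bp of the replicate 2 peak. Its other shared peak lay in intron 3 of 45, at chr1:71650444-71650484 in replicate 1, its midpoint 98 bp from the 5′ splice site (106 bp in replicate 2), with folds of 4.99 and 5.40 and pileups of 8 and 12. The Fn1 pileups were among the highest of the set in replicate 2, beside a median fold of 3.62 there.

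**Figure D3:**
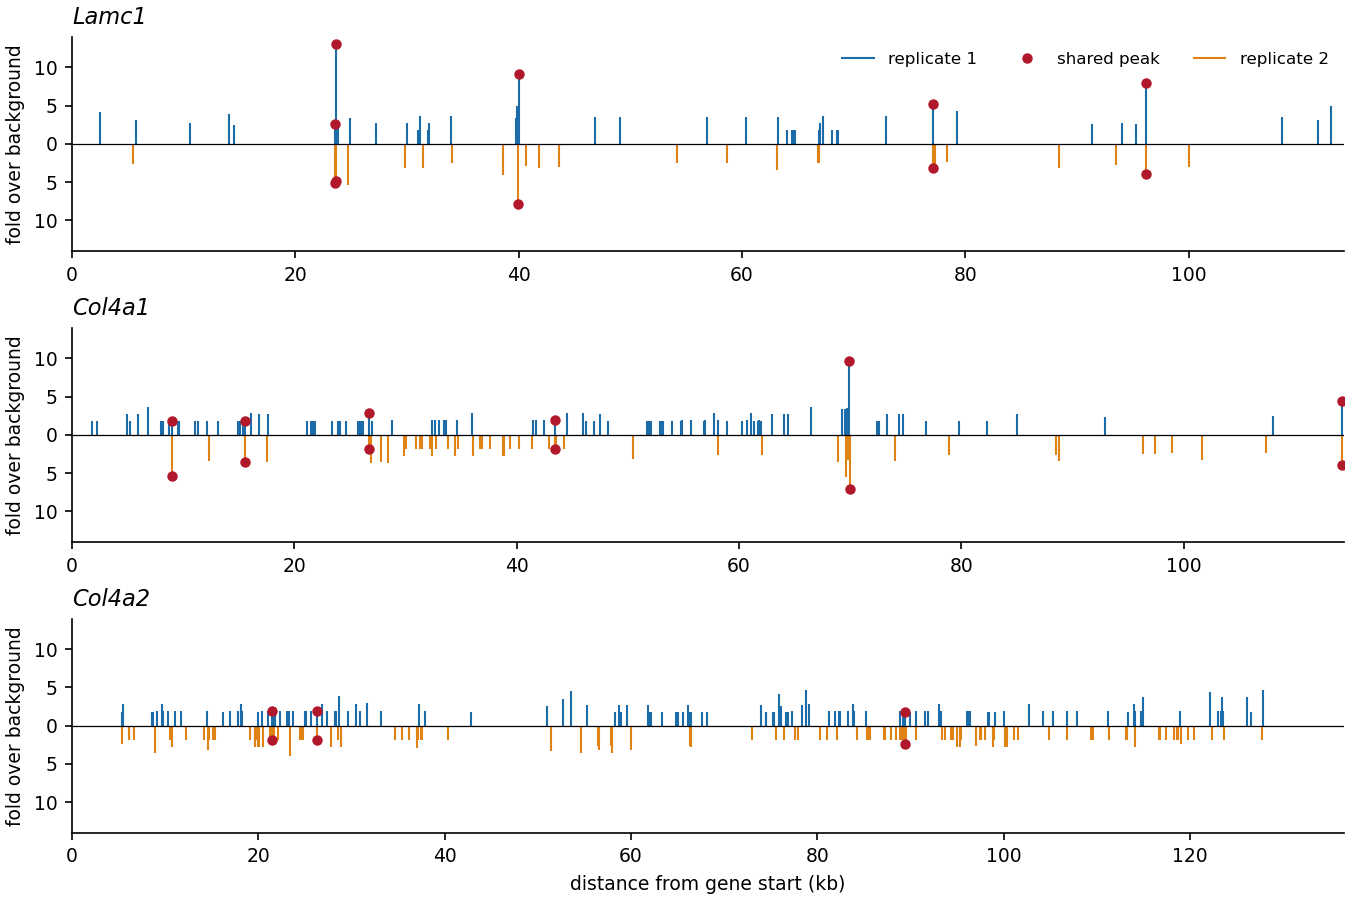
Fold of each peak against distance from the gene start in kb for Lamc1, Col4a1 and Col4a2, with replicate 1 drawn upward, replicate 2 downward and shared peaks in red. The tall red pairs of Lamc1 reach 13.03 in replicate 1 and 7.81 in replicate 2, whereas those of Col4a2 stay at 2.38 or less.

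Taken over the 16 shared pairs, the median fold was 3.21 in replicate 1 and 3.75 in replicate 2, against 1.91 and 1.92 for unshared peaks of the same genes. For the 16399 pairs of all genes the medians were 1.95 and 2.38. A fold of 3 or more in both replicates was found for 8 of the 16, against 18.6% of all pairs. Lamc1 contributed 4 of these 8 from its 5 pairs and the other genes 4 of 11. Median folds were 7.98 and 4.85 in the 5 Lamc1 pairs, against 1.93 and 3.088 in the 11 others. Pileup was 1 in either replicate at 0 Lamc1 pairs and at 7 of the 11 others. Replicate 1 had the higher fold in 11 of the 16 (68.8%), close to the 68.1% of all pairs.

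**Figure D4:**
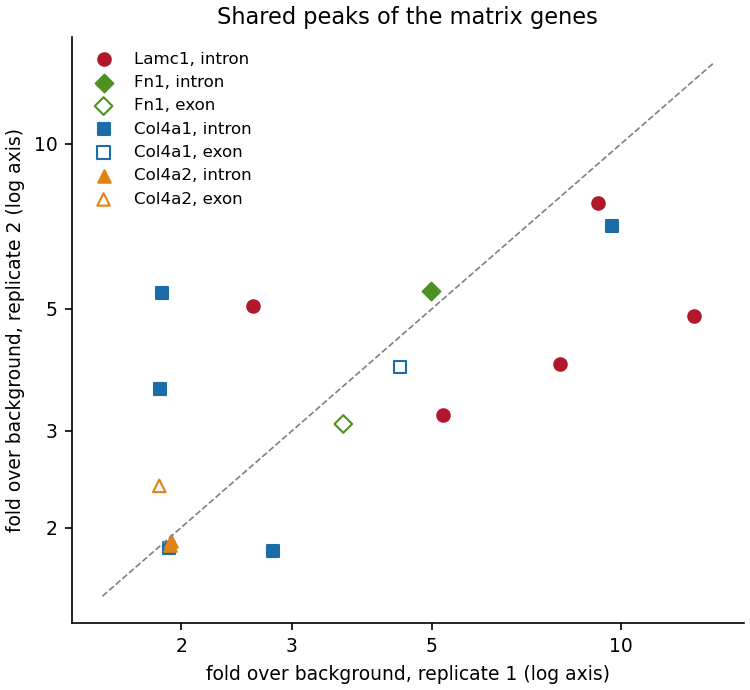
Fold in replicate 2 against fold in replicate 1 for the 16 shared pairs of the matrix genes, by gene. The 5 Lamc1 pairs have folds of 2.60 to 13.03 in replicate 1 and 3.202 to 7.81 in replicate 2, and the pairs of Col4a2 lie at the low end of both axes.

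Because genes with many peaks share some by position alone, shared peaks were set against the number given by even placement of the same peaks within the exons and introns of the gene. A one-sided exact Poisson test, adjusted by the method of Benjamini and Hochberg across the 15995 genes, called 365 genes, 2.28% of those tested, and 2133 had an unadjusted p under 0.05. The median length was 156.7 kb for the called genes and 27.9 kb for all genes tested. Of the 9 matrix genes tested, 1 was called. Lamc1 had 5 shared peaks against 0.332 given by even placement, a ratio of 15.1 (adjusted p = 0.00346, exact Poisson test). Lamc1 was named with its shared count known, so this value is a description. The test counts its 2 peaks that lie 73 bp apart separately. With shared peaks under 100 bp apart counted once, Lamc1 had 4 against 0.332 (adjusted p = 0.0364, exact Poisson test). Fn1 had 2 against 0.0568 (ratio 35.2, adjusted p = 0.0597) and Col4a1 6 against 1.40 (ratio 4.30, adjusted p = 0.0896), neither past 0.05 in the same exact test. Col4a2 had 3 against 3.32, a ratio of 0.904. The other 5 had 0 against 0.0318 to 0.203, values at which no shared peak is the commonest outcome. Over the set the sum was 16 against 5.52, a ratio of 2.90, beside 2.29 over all genes tested. Neither the coverage of the gene by reads nor the input library enters this test, so unevenness of reads along a gene is not accounted for. With peaks of pileup 1 left out, an alternative added after the data were seen, Fn1 was also called by the exact test (adjusted p = 0.0309) and Col4a1 was not (2 against 0.271, adjusted p = 0.236). All Fn1 peaks have a pileup of 3 or more, so its counts and unadjusted p were those of the main test. For Fn1 only the adjustment differed, being made over 9954 genes. Fn1 was called as well with peaks placed over the whole gene or with exons of all transcripts.

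**Figure D5:**
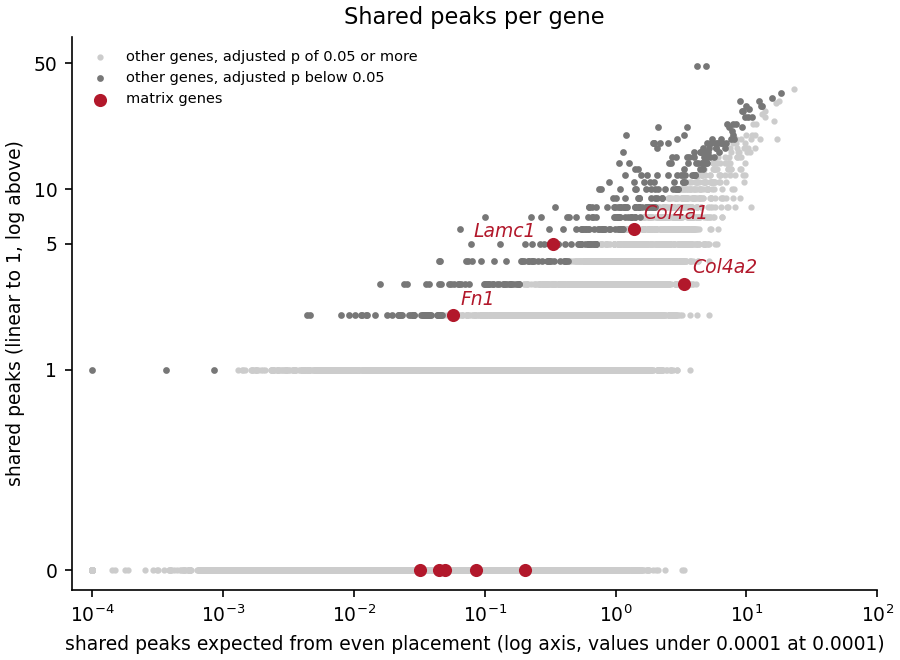
Shared peaks observed against those given by even placement, for genes with a peak in both replicates (horizontal axis log, vertical axis linear to 1 and log above). Matrix genes are in red, and those with a shared peak are named. Lamc1 lies at 5 against 0.332 and Col4a2 at 3 against 3.32, where observed and expected are nearly equal.

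The 3 genes most like Lamc1 in length, peaks of each replicate and shared peaks, of 6196 other genes with a shared peak, were Erbin, Trpm7 and Dop1b. Each had 5 shared peaks, with 47, 43 and 39 peaks in replicate 1 and 25, 26 and 31 in replicate 2. These counts are what the 3 genes were matched on.

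Peaks of 3 members lie opposite annotated genes. The processed pseudogene Gm8818 covers 1 Lamc1 peak of replicate 1, which is not shared. Gm15419, on the other strand, covers 18 and 29 of the Col4a2 peaks in replicates 1 and 2, the shared coding peak among them, and Gm15418 covers the shared 3′ UTR peak of Col4a1. None of the 338 and 256 peaks of the 10 genes was also listed on the opposite strand. The sources used here do not give how the strand of a peak was set. On the same strand, predicted transcripts awaiting experimental evidence (Gm38009, Gm43921, Gm44716 and Gm38211) share 4 of the peaks of replicate 1 and 2 of replicate 2 with their matrix gene, and none is a shared pair.

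Wider lists of matrix genes were read the same way, with no test of the lists. Among the 11 laminin chains, 9 had a peak in both replicates and 2 a shared peak, Lamc1 and Lama5 (1 against 0.321). All 6 type IV collagen chains had shared peaks, 24 in all against 11.1 by even placement, with 6 against 3.25 in Col4a5 and 5 against 1.30 in Col4a6. By the exact Poisson test 0 were called, and 2 had an unadjusted p under 0.05. Of the 11 fibrillar chains 3 had shared peaks, 6 in all against 5.61, with 2 each in Col11a1, Col27a1 and Col5a1. There 0 were called, and 0 had an unadjusted p under 0.05. Other basement membrane proteins shared 11 peaks against 4.18 in 5 of 10 genes, with 4 each in Fras1 and in Nid2, a nidogen that links laminin to type IV collagen. Other collagens shared 9 against 4.28 in 5 of 11 genes, including 3 each in Col7a1 and Col16a1. The enzymes of collagen folding and crosslinking shared 16 against 6.86 in 8 of 20 genes, with 4 in the procollagen protease Adamts2 and 3 in Bmp1. In these 3 lists the exact Poisson test called 0 genes, with 2, 0 and 2 genes at an unadjusted p under 0.05. The elastic fibre and matricellular list, which includes Fn1, shared 46 against 13.2 in 9 of 12 genes, and 8 of the 12 had an unadjusted p under 0.05. Tenascin C (Tnc) was called there, with 8 against 1.16 (adjusted p = 0.00364, exact Poisson test), while fibrillin 1 (Fbn1) had 14 and thrombospondin 1 (Thbs1) 12 without passing. Tenascin, fibrillin and thrombospondin are large secreted glycoproteins. Of the 18 matrix receptors, 10 had shared peaks, 22 in all against 8.76, and 1 was called, the syndecan Sdc4 with 5 against 0.612 (adjusted p = 0.025, exact Poisson test). An unadjusted p under 0.05 was found for 3 of the 18. Across all genes the called share was 2.28%, and 2133 of 15995 had an unadjusted p under 0.05.

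Marker genes were read for the cell type on the label. All 9 neuronal markers had peaks in both replicates, as did 15995 of the 20188 genes with a peak in either list. Rbfox3 held 13 and 10 peaks over 421.8 kb, a long gene beside the median of 27.9 kb for those 15995. Map2 held the most of the neuronal markers, 212 and 94 peaks. A pileup of 3 or more was reached in 2 of the 9 neuronal markers in each replicate. The share of all genes that reached it is not given here. For fibroblasts and pericytes 6 of 9 had peaks in both replicates and 3 reached that pileup in each. Their peaks ran from none at Lum to 19 and 21 at Cspg4. For the endothelium 4 of 5 had peaks in both, and 2 and 1 reached a pileup of 3 or more. Endothelial peaks ran from 0 and 2 at Cdh5 to 138 and 153 at Flt1. Neural progenitor markers reached that pileup in 2 and 4 of 5, and astrocyte markers in 1 of 5 in each replicate. Microglial markers reached it in 0 and 2 of 5, and oligodendrocyte markers in 0 of 5. Astrocyte peaks ran from none at Gfap to 67 and 51 at Slc1a3. Peaks are not expression levels, so these counts do not establish the cell type, and their part in the matrix gene values was not tested.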

How the data were processed

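The authors made iCLIP and size-matched input libraries, per the labels' protocols. The submitters' processing notes name build mm10 and the tools MACS2 2.1.1.20160309, Novoalign 3.09.00, deepTools 3.2.1, HOMER 4.11.1 and bedtools 2.25.0. The sources used here do not give whether input served as the control in peak calling. Per the deposited peak names, MACS2 was run at p 0.005. Each deposited peak carries a score (10 times −log10 p, rounded down), a fold, which is a ratio of pileup to background, and −log10 p, all from the authors' peak caller. The deposited lists of replicates 1 and 2 hold 654978 and 581790 lines, reduced here to distinct intervals. The shared list holds 16399 pairs, each recovered as an overlap of at least 50% of the replicate 2 peak. A deposited count table has 8 columns that match no sample label and was not used.

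Peaks were placed by midpoint in GENCODE M21 genes by strand, exonic where the midpoint lay in an exon of a basic transcript. Pileup was solved from fold and −log10 p with a pseudocount of 1. The number of shared peaks under even placement was computed in closed form from peak widths and compartment lengths, and tested per gene by a one-sided exact Poisson test with Benjamini-Hochberg adjustment (scipy 1.17.1, statsmodels 0.14.6, Python 3.11.15), called at 0.05. The calculation was first run on simulated intronic peaks placed evenly, with shared peaks planted in some genes. Even placement is what the test assumes, so that run does not show how it behaves with unevenly placed peaks. For 367 of the 15995 genes the expected number was 0, 1 of which was called. Shares have 95% Wilson intervals. Replicates gave n = 2, so densities have no test, and p-values measure counting error within 1 pair of libraries.

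Named were the 10 genes, each shared peak, the peaks of highest fold per gene, replicate and compartment, at most 2 genes per list with most shared peaks (ties kept) and any called. The members and lists were chosen with earlier results of these data known.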

Additional observations from a re-analysis of the deposited data

How the results depend on the processing

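No paired analysis was possible because 1 group has peak lists, so no comparison between groups was made. Of the alternatives, 36 values kept their side or moved by less than the replicate spread. The mean of 297 peaks per replicate was 131.5 with peaks of pileup 1 left out, and ranged from 256 to 338 with a replicate left out. The exonic share of 6.97% was 8.58% with exons of all transcripts and 9.67% with −log10 p of 3 or more, and 6.51 to 7.42% with a replicate left out. The exonic over intronic density, 0.926, was 0.765 with all transcripts, 1.32 with −log10 p of 3 or more and 1.03 with folds of 5 or more, and 0.861 to 0.991 with a replicate left out, so whether exons or introns are denser depends on these settings. The 365 genes called were 612 with pileup 1 left out, where fewer genes (9954) were tested, and 212 with shared peaks under 100 bp apart counted once. The adjusted p of Lamc1 ranged from 0.000894 to 0.0373 over its alternatives, with its ratio from 7.19 to 23.3. The median fold of shared peaks, 3.48, was 2.51 without Lamc1 and 3.21 to 3.75 with a replicate left out. The density of Lamc1 over the other 9, 0.832 ± 0.215 (SD, n = 2) and 0.680 to 0.984 with a replicate left out, turned to 1.87 with pileup 1 left out and 6.85 with folds of 5 or more, where it rests on 4 and 3 Lamc1 peaks. The cause was not tested. Leaving out pileup 1 and merging near peaks were chosen after seeing the data. Sharing cannot be computed with a replicate left out. With most peaks of the lists at a pileup of 1, a gene without a shared peak is not shown to lack common binding at this depth.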
